A study of Mus musculus with 5 samples.

Results

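The replication-dependent histone genes of the mouse were examined for peaks of the transcription factor CREB and of H3K4 in the fetal testis. The members were the protein-coding RefSeq genes whose symbols follow the nomenclature of the clustered histone genes, and 63 of 21887 protein-coding genes met this rule. They comprised 5 H1, 17 H2A, 17 H2B, 12 H3 and 12 H4 genes. The gene labelled H4bc24 was counted as H2B, because its older symbol Hist1h2br names an H2B gene, and the pseudogene H2ac14 was left out. CUT&RUN uses a nuclease tethered to an antibody to cut out the DNA that the antibody's target occupies, and it was done on 100000 dissociated cells of male gonads per assay. Whole gonads were used without sorting, and the labels give neither strain nor genotype. CREB libraries came from E13.5 (days of embryonic development) and, likewise, from E16.5 and E18.5, and an H3K4 library, whose methylation state the labels do not give, from E18.5. Each combination of antibody and stage had 1 library, so there is no replicate check, and differences between stages cannot be told apart from differences between libraries. An IgG library of the series was not used here.

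Replication-dependent histone genes supply the histones that package newly copied DNA, and they are transcribed mainly in S phase. They lie in clusters, have no introns as a rule, and their mRNAs end in a stem-loop in place of a poly(A) tail. Many H2A and H2B genes stand head to head and share the DNA between their starts. CREB is a transcription factor activated by cAMP signalling that binds the cAMP response element (CRE), TGACGTCA, or its core TGACG. Trimethylated H3K4 marks the promoters of active genes, but the labels do not give the methylation state for the H3K4 library.

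The members fell into 2 chromosomal clusters. The chromosome 3 cluster held 10 genes from H2ac21 to H2bc18 (mm10, chr3:96219885-96270192). The chromosome 13 cluster held 53 genes, which formed 4 blocks separated by more than 100 kb. Block A ran from H2bc13 to H4bc24 with 18 genes (chr13:21715711-21837530) and block B from H2ac12 to H2bc11 with 5 (chr13:22035122-22043658). Block C ran from H4c8 to H1f1 with 28 genes (chr13:23531044-23764412). Block D held only H2bc1 and H2ac1 (chr13:23933725-23934913), the head-to-head pair known under the older names Th2b and Th2a for histones of the male germ line.

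Sequences before the starts of 8 members are shown because the results below turn on them. They are from RefSeq for GRCm38.p6 (mm10 coordinates), run 5′ to 3′ toward the start and end at the base before it, and are shortened where another annotated gene begins. Capitals mark the CRE or its core, on either strand. H2bc11, H4c1 and H4c8 hold a complete CRE, H2bc9, H2bc12 and H4c3 hold only the core, and H4c12 and H1f4 hold neither. These 8 were picked singly and do not stand for all members. The core was found in 11 of 22 member promoters with CREB at any stage and in 18 of 37 without.
H2bc11 (chr13:22042950-22043197, plus strand): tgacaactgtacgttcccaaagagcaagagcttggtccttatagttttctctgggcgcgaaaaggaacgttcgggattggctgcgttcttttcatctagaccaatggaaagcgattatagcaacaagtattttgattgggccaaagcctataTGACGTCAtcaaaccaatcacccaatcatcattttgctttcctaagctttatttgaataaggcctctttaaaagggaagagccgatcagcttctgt
H4c1 (chr13:23761250-23761499, minus strand): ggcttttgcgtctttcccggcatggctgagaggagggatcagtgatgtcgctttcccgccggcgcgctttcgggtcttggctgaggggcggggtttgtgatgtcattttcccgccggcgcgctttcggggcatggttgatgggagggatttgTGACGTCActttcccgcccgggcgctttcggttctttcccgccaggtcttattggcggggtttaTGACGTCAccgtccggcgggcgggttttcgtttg
H4c8 (chr13:23530929-23531043, plus strand): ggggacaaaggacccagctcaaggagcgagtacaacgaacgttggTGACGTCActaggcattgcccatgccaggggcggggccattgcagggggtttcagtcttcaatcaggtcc
H2bc9 (chr13:23543445-23543694, minus strand): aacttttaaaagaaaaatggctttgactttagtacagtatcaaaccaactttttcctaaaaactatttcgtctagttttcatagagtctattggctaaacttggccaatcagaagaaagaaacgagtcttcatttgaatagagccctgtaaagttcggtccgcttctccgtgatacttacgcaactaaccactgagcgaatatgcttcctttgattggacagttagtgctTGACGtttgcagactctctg
H2bc12 (chr13:22035644-22035820, plus strand): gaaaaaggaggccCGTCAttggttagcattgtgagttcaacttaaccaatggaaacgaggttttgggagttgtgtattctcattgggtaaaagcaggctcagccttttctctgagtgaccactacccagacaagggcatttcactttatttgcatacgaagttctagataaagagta
H4c3 (chr13:23698459-23698708, minus strand): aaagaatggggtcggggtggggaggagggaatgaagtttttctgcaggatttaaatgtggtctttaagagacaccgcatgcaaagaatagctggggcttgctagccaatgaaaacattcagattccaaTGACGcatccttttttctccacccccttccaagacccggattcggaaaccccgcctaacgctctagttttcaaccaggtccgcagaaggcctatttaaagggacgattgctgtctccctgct
H4c12 (chr13:21750554-21750803, minus strand): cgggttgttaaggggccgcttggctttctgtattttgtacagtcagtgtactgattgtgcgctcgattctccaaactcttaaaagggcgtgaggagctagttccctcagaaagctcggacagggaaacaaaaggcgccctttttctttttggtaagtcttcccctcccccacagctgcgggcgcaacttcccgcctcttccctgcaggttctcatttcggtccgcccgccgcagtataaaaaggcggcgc
H1f4 (chr13:23622559-23622808, minus strand): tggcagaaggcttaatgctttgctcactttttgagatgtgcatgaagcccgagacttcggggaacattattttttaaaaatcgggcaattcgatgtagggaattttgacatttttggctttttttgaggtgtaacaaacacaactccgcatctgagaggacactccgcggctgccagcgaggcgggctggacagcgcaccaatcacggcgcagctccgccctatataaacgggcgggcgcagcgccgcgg

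CREB peaks lay at members on chromosome 13 at every stage and at no member on chromosome 3. A peak was assigned to a gene when it reached within 1000 bp of either gene end, and because neighbouring genes share peaks, distinct peaks were counted. At E13.5, 4 peaks lay at 6 members, 1 in block B and 3 in block C. At E16.5, 13 peaks lay at 21 members, with 2 peaks in block A, 2 in block B and 9 in block C. At E18.5, 18 peaks lay at 23 members, with 2, 2 and 14 peaks in these blocks. Block D had no peak in any list.

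As a share of the 63 members, the E13.5 count was 9.52% (95% Wilson interval 4.44 to 19.3). The E16.5 share was 33.3% (22.95 to 45.6), and E18.5 followed with 36.5% (25.7 to 48.8). Over all protein-coding genes, 3.94%, 14.9% and 12.9% had a CREB peak at an end at the 3 stages in turn. H3K4 ran the other way, with 22 members (34.9%, 24.3 to 47.2) at 22 distinct peaks, against 52.7% of all protein-coding genes. The intervals cover counting error only and treat members as independent, which genes that share a peak are not. Of the distinct peaks, 3 of 4, 8 of 13 and 12 of 18 CREB peaks and 12 of 22 H3K4 peaks lay at 2 members at once. The share of members with CREB was thus above that of all genes at each stage, and the share with H3K4 below it. However, 23 of the 63 members stood in 2 stretches without a peak of any list, described below. All 22 members with H3K4 lay outside these stretches, which follows from how the stretches were defined. Leaving out members without any peak raises every share by construction. Shares outside the stretches were therefore not set against those of all genes. Within chromosome 13 alone the shares were 11.3%, 39.6%, 43.4% and 41.5%.

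**Figure D1:**
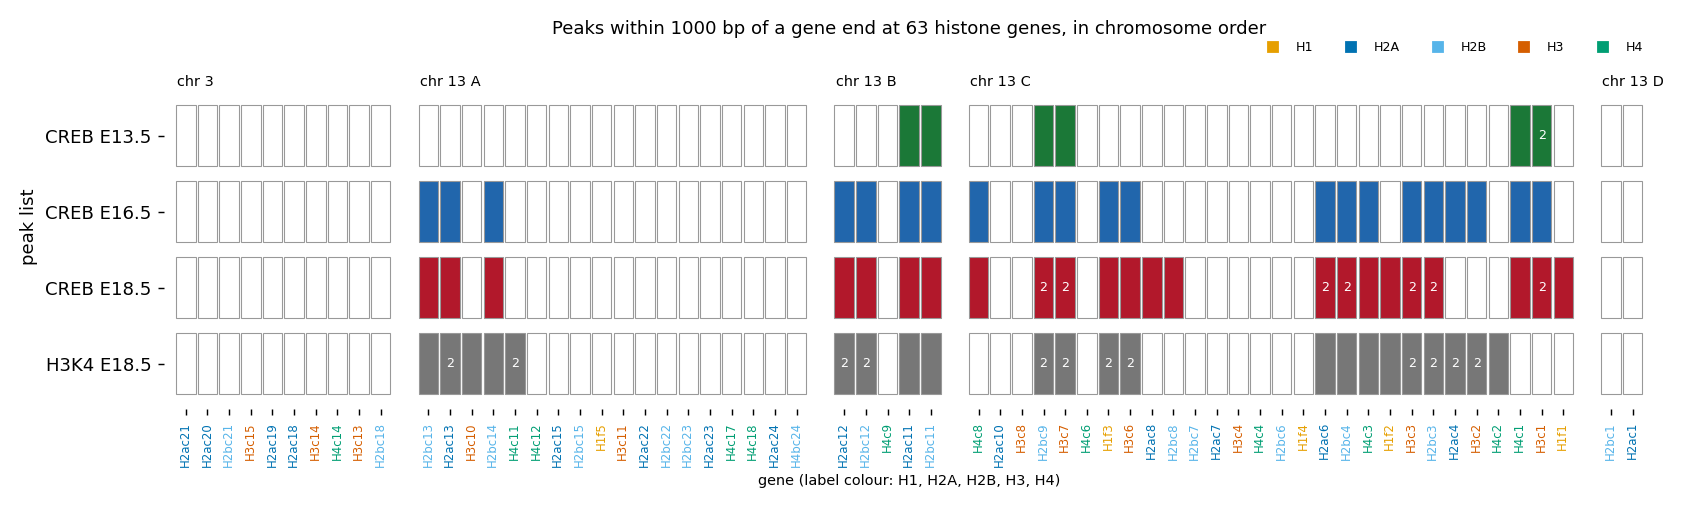
Presence of a peak within 1000 bp of a gene end for each of the 63 members (columns, in chromosome order, label colour by histone type) in the 3 CREB lists and the H3K4 list (rows). Filled cells have a peak and a white digit gives the number of peaks above 1. All 10 genes of chromosome 3 and 13 neighbouring genes of block A are empty in every row.

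By histone type, CREB at any stage was found at 8 of 17 H2B genes, 6 of 17 H2A genes, 5 of 12 H3 genes, 3 of 12 H4 genes and 3 of 5 genes for the linker histone H1. Of all protein-coding genes, 16.7% had CREB at any stage by the same rule. H2A and H2B form the dimers of the nucleosome, H3 and H4 its central tetramer, and H1 binds the linker DNA. The later stages, E16.5 then E18.5, had 5 and 5 H2A genes, 7 and 8 H2B genes, 5 and 4 H3 genes and 3 and 3 H4 genes. At E13.5 the counts were 1 H2A, 2 H2B, 2 H3 and 1 H4 gene. H1 genes had 0, 1 and 3 members over the stages in turn. With so few genes per type the intervals overlap widely, from 13.3% to 53.1% for H2A and from 8.89% to 53.2% for H4 at E18.5.

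**Figure D2:**
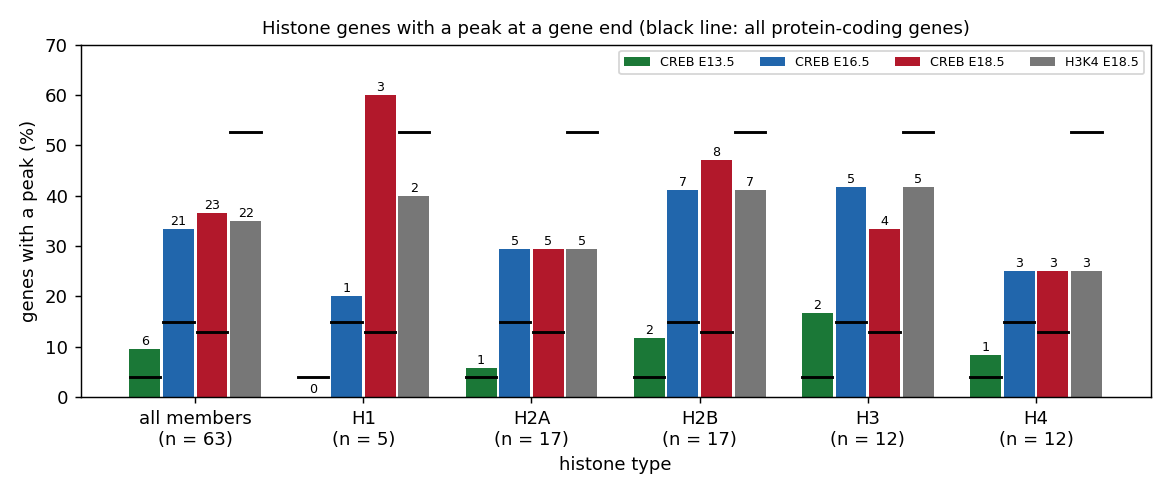
Percent of genes with a peak at a gene end for all 63 members and for each histone type (groups of bars, number of genes below), in the 3 CREB lists and the H3K4 list (bar colour). Digits are numbers of genes, and black lines give the percent over all protein-coding genes, 3.94, 14.9, 12.9 and 52.7. CREB bars for all members stand above their lines and the H3K4 bar stands below its line.

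The head-to-head pair H2ac11 and H2bc11 in block B was the place where CREB peaks of all 3 stages overlapped each other. The starts of the genes are 249 bp apart, and the midpoint of each peak lay between them. The peaks were chr13:22043035-22043184 in the E13.5 list, chr13:22042791-22043420 in the E16.5 list and chr13:22043035-22043194 in the E18.5 list. Their midpoints lay 88, 92 and 83 bp from the H2bc11 end. The sequence between the starts, shown above, holds 1 CRE at chr13:22043102-22043109, and the midpoints lay 4, 0 and 9 bp from its centre. In file order they stood in position 296 of 862, 21 of 3528 and 46 of 2957. No source used here says what this order means. An H3K4 peak at chr13:22042838-22043047 overlapped these peaks.

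The second place with CREB at every stage lay at H4c1 and H3c1, near the far end of block C. At E13.5 there were peaks at chr13:23761374-23761523 and chr13:23762513-23762662, in list positions 116 and 849. E18.5 had nearly the same peaks, chr13:23761369-23761528 and chr13:23762511-23762670, in positions 103 and 270. They lay on either side of H3c1, the first 199 bp from the H4c1 end and the second 204 bp from the H3c1 end at E18.5. The E16.5 peak, chr13:23761567-23762196 in position 37, lay between them and touched neither. H4c1 holds 2 CREs, at chr13:23761340-23761347 and chr13:23761276-23761283, which lay outside the peaks, 105 and 169 bp from the E18.5 midpoint. No H3K4 midpoint lay within 1000 bp, the nearest being 4383 bp from the first E18.5 peak.

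The third lay at H2bc9 and H3c7, also in block C. The E13.5 peak, chr13:23543416-23543565 in position 601, held the H2bc9 start and overlapped the E18.5 peak at chr13:23543447-23543606 in position 372, which began just before it. A further E18.5 peak, chr13:23544243-23544402 in position 621, lay inside H3c7. The E16.5 peak, chr13:23543665-23544294 in position 154, overlapped the latter but not the former. The core TGACG of H2bc9 lay 28 bp from the E13.5 midpoint and 64 bp from the first E18.5 midpoint. H3K4 peaks overlapped both E18.5 peaks.

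These 6 genes (H2ac11, H2bc11, H4c1, H3c1, H2bc9 and H3c7) were all the members with a peak at E13.5, and all 6 had one at the later stages. Over all genes 98.3% of the E13.5 genes recurred in the E16.5 list and 98.8% in that of E18.5. Of the members at E16.5, 19 of 21 (90.5%) also had a peak at E18.5, and these were 19 of 23 (82.6%) members at E18.5. Over all protein-coding genes the shares were 74.4% and 86.4%. The members listed only at E16.5 were H2ac4 and H3c2, which share a peak in position 2578, and those only at E18.5 were H2ac8, H2bc8, H1f2 and H1f1. Counted by peaks that overlap by at least 1 bp, sharing was lower, except from E13.5 to E18.5. Of the E13.5 peaks 4 of 4 overlapped an E18.5 peak but 1 of 4 an E16.5 peak, and 10 of 13 E16.5 peaks overlapped one of E18.5. Overlap was not counted over all peaks of the lists, so these counts cannot be called particular to histone genes.

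At 4 loci a pair of neighbouring CREB peaks at E18.5 had the midpoint of an E16.5 peak between them. At H3c3 and H2bc3, which are transcribed away from each other, the E18.5 peaks lay at chr13:23745584-23745743 and chr13:23746470-23746629, 886 bp apart by midpoints. The E16.5 peak at chr13:23745804-23746433 filled the space between them, with its midpoint 12 bp from their centre and gaps of 60 and 36 bp to either side. At H4c1 and H3c1 the E18.5 midpoints were 1142 bp apart, and the E16.5 peak left gaps of 38 and 314 bp. At H2bc9 and H3c7 and at H2ac6 and H2bc4, with E18.5 midpoints 796 and 673 bp apart, the E16.5 peak overlapped the second E18.5 peak and missed the first. Nearly all peaks of a list have 1 width, which is 630 bp in the E16.5 list, 150 bp in that of E13.5, 160 bp in that of E18.5 and 210 bp for H3K4. When all widths were set to 150 bp, 1 of the 4 E13.5 peaks still overlapped an E16.5 peak, and 9 of 13 E16.5 peaks overlapped one of E18.5.

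**Figure D3:**
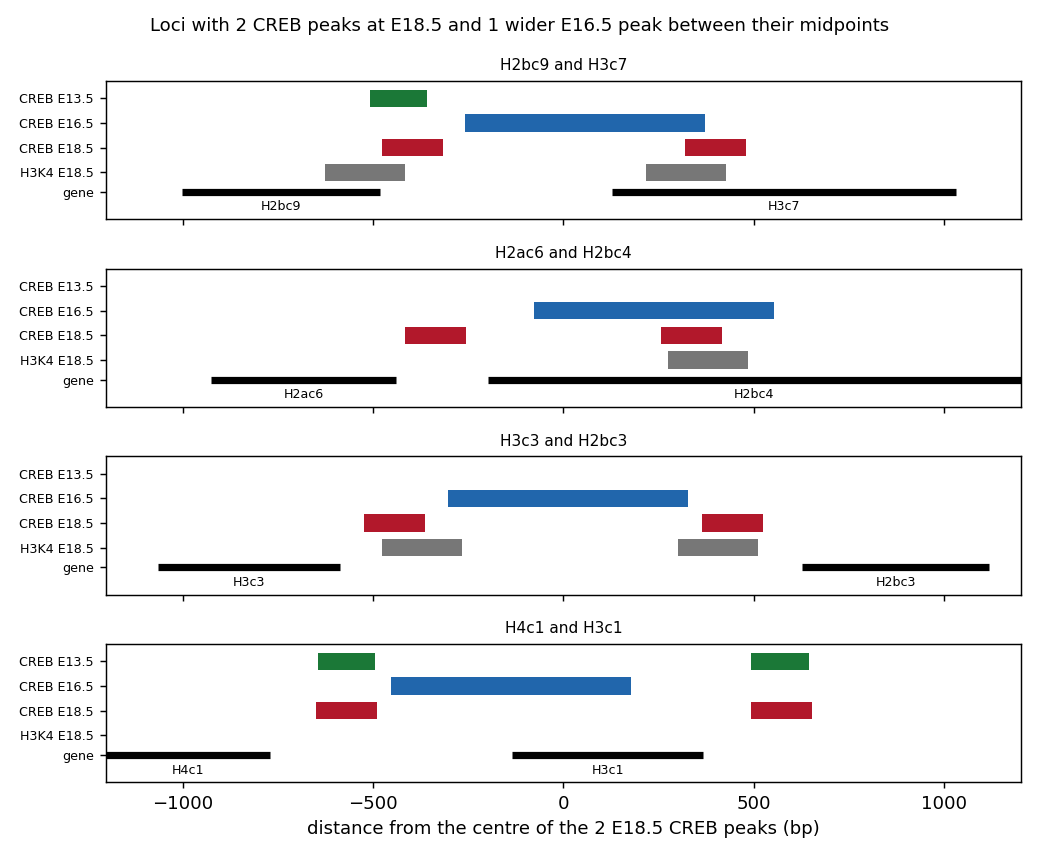
Peak extents (bars) of the 3 CREB lists and the H3K4 list at the 4 loci with a pair of E18.5 CREB peaks, with genes in black, against the distance in bp from the centre of the E18.5 pair. At H3c3 and H2bc3 and at H4c1 and H3c1 the E16.5 bar lies between the E18.5 bars and touches neither.

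Head-to-head H2A and H2B pairs share the DNA between their starts. Among members with an annotated start, 10 such pairs had starts within 1000 bp, between 164 and 281 bp apart. A CREB peak was shared by 1 pair at E13.5, by 3 pairs at E16.5 and by 4 at E18.5, always with its midpoint between the starts. Neighbours of which 1 gene has no start in the promoter table, such as H2ac6 and H2bc4, could not be counted. An E18.5 CREB peak, chr13:23683982-23684141, lay between H2ac6 and H2bc4. H2bc13 and H2ac13 had peaks at E16.5 and E18.5, 48 and 106 bp from the H2bc13 start, in positions 509 and 1441. H2ac12 and H2bc12 likewise had peaks 58 and 130 bp from the H2ac12 start, in positions 2779 and 1442. H2ac8 and H2bc8 had a peak at E18.5 alone, in position 1900, 72 bp from the H2ac8 start, with no H3K4 midpoint nearer than 8120 bp. At 3 pairs an H3K4 peak lay within 1000 bp of both starts, with 2 such peaks at H2ac12 and H2bc12. An H3K4 midpoint lay between the starts at 2 of the 3 pairs. The pairs H2ac15 and H2bc15, H2ac22 and H2bc22, H2bc23 and H2ac23, H2ac24 and H4bc24, H2bc7 and H2ac7, and H2bc1 and H2ac1 had no peak in any list.

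Core histone genes outside these pairs also had CREB close to their starts. H2bc14 had peaks 68 and 2 bp from its start at E16.5 and E18.5, in positions 1220 and 1054. The same 2 peaks and the H3K4 peak there also lay within 1000 bp of the pseudogene H2ac14 (chr13:21721442-21721801), which is not a member. At H4c3 the peaks were 114 and 122 bp from the gene end, in positions 852 and 936, and the TGACG shown above lay 6 and 2 bp from their midpoints. At H4c8 the E16.5 peak, in position 675, held the CRE, 23 bp from its midpoint, whereas the E18.5 peak, in position 2501, ended before it with a midpoint 97 bp away. The H4c8 sequence above begins at chr13:23530929 because another annotated gene, not a member, covers the bases before it. The E18.5 peak, chr13:23530801-23530960, had its midpoint inside that gene, nearer to the end of that gene than to H4c8. At H3c6 peaks 129 and 163 bp from the gene end, in positions 1734 and 2690, lay between H3K4 midpoints on either side. Across members with a start in the promoter table, 4 of 58 had a CREB midpoint within 250 bp of it in the E13.5 list, 11 in the E16.5 list and 17 in the E18.5 list. These were 6.9%, 19% and 29.3% of such members, against 3.58%, 12.5% and 12% of all protein-coding genes with a start in the table. An H3K4 midpoint lay as near at 14 members (24.1%), against 30.4% of all. All 14 lay outside the 2 stretches free of peaks described below, which follows from how these stretches were defined. Any annotated start was accepted here, so the E16.5 and H3K4 counts include H2bc6, which has no peak by the gene-end rule.

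The H1 genes had no CREB midpoint within 250 bp of a start at any stage, for all 5 genes. Their peaks lay beyond the other end or belonged to a neighbour. H1f3 had peaks 448 and 424 bp from its end at E16.5 and E18.5, in positions 1337 and 1964, both past the 3′ end of the gene. H1f2 had an E18.5 peak 417 bp from its end, in position 2103, also past the 3′ end, and the nearest other gene end was 5093 bp away. The peak assigned to H1f1 at E18.5 was the one next to H3c1 described above. H1f4 and H1f5 had no peak in any list. The peaks past H1f3 and H1f2 overlapped H3K4 peaks, and a further H3K4 peak lay over the H1f3 start.

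H3K4 and CREB did not mark the same members throughout. Of the 25 members with CREB at any stage, 19 had an H3K4 peak and 6 did not, namely H4c1, H3c1, H4c8, H2ac8, H2bc8 and H1f1. By stage, 4 of 6, 18 of 21 and 17 of 23 members with CREB had H3K4, against 96.3%, 95% and 95.8% of all genes with CREB. Counted by distinct CREB peaks, 2 of 4, 11 of 13 and 14 of 18 had an H3K4 midpoint closer than 1000 bp. This count was not made over all CREB peaks, and the gene shares just given follow another rule. Members with H3K4 and no CREB were H3c10, H4c11 and H4c2. Only the E18.5 CREB library matches H3K4 in stage.

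No peak of any list lay at 35 members, and 23 of them stood in 2 stretches free of peaks. The first, chr3:96181629-96300749, is 119.1 kb long and holds all 10 genes of chromosome 3 (H2ac21, H2ac20, H2bc21, H3c15, H2ac19, H2ac18, H3c14, H4c14, H3c13 and H2bc18) together with Bola1 and Fcgr1. The second, chr13:21735547-21855787, is 120.2 kb long and holds 13 genes of block A from H4c12 to H4bc24 and no other protein-coding gene. A peak missing from a list does not show that the protein or mark is missing, since the depth behind the lists is unknown. H2bc6 is counted among the members without a peak, but RefSeq also gives it a start inside the gene, and the E16.5 peak chr13:23585695-23586324 had its midpoint 39 bp from that start. An H3K4 midpoint lay 179 bp from it.

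Many members of these stretches have near copies in the clusters, and a read from identical sequence can align to more than 1 place. The promoters of H2bc23 and H4bc24 were identical over all 300 bases of the RefSeq window. The longest identical run was 285 bases between H4c17 and H4c18, 231 between H3c14 and H3c15, 219 between H2ac18 and H2ac19 and 200 between H2ac23 and H2ac24. Identical runs of 50 bases or more were found for 11 of 21 members of the stretches with a promoter sequence and for 1 of 37 members elsewhere, H4c11, which shares 72 bases with H4c12. Of the 22 members with CREB and a promoter sequence, 0 had such a run, and their longest was 27 bases. The other 10 of the 21 members of the stretches had no run of 50 bases and no peak either. H2bc21 and H4c14, which have no promoter sequence, were not compared. Runs were sought only in the 300-base windows, each read in the direction of its gene. No source used here says how multiply aligned reads were treated, and the part of the copies in the missing peaks was not tested.

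**Figure D4:**
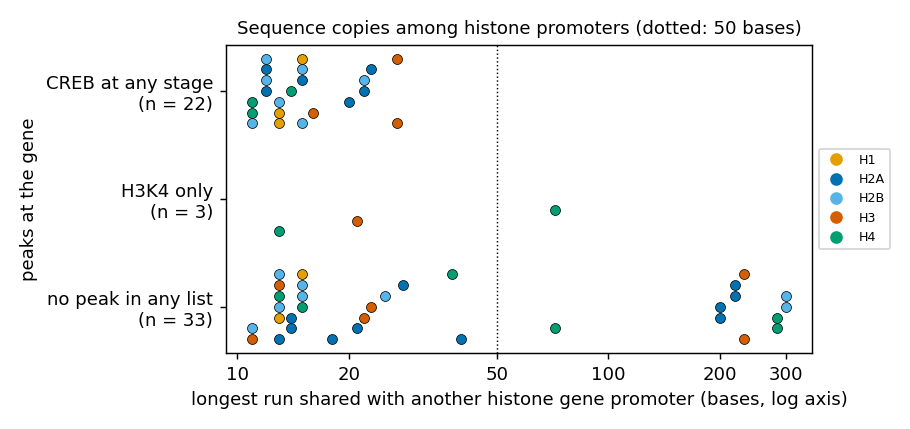
Longest run of bases (log axis) that the promoter of each of 58 members shares with the promoter of another member, by the peaks at the gene (rows) and coloured by histone type. The dotted line marks 50 bases. The 22 members with CREB lie between 11 and 27 bases, and the points at 200 bases or above have no peak in any list.

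Promoter motifs were searched as exact letters on both strands in windows from 250 bases before to 50 after the start. The CRE, TGACGTCA, occurred in 4 of 59 member promoters (6.78%), those of H2ac11, H2bc11, H4c1 and H4c8, against 2.23% of 21263 promoters of protein-coding genes. H2ac11 and H2bc11 share the same site. All 4 genes had CREB peaks at E16.5 and E18.5. Over all genes with a promoter sequence, 24.5%, 66.5% and 51.7% of the 445 with a CRE had a CREB peak at the 3 stages, against 3.60%, 14.3% and 12.6% of the others. The core TGACG, which the CRE contains, was found in 49.2% of member promoters and 23.6% of all. It was found in 11 of 22 member promoters with CREB at any stage and in 18 of 37 without. A core between head-to-head starts can count for both genes. Outside the CREs, the member promoters held 22 distinct cores.

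Other elements known from histone promoters followed the histone type. CCAAT, the site of NF-Y, was found in all 5 H1, 17 H2A, 16 H2B and 10 H3 promoters and in 3 of 11 H4 promoters, against 38.2% of all promoters. ATTTGCAT, the octamer bound by OCT-1, was found in 7 of 16 H2B and 6 of 17 H2A promoters and in no H1, H3 or H4 promoter, against 1.66% of all. TATAAA was found in 57.6% of member promoters and 12.6% of all. Any of these elements between head-to-head starts can count for both genes, and their distinct sites were not counted. A match of letters is a description and not a bound site.

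Genes that act on histone genes or histones were compared as 3 further lists. Of 20 genes for histone transcription and mRNA processing, 3, 10 and 8 had CREB at the stages in turn and 17 had H3K4. Casp8ap2, a component of the histone locus body, Nfya, a subunit of NF-Y, and Zfp473, a factor in histone mRNA 3′ processing, had CREB at every stage. Npat, the coactivator of histone genes, and Slbp, which binds the histone mRNA stem-loop, had it at E16.5 and E18.5. Of 15 chaperones and assembly factors, 2, 8 and 7 had CREB and 15 had H3K4, with Asf1b and Nap1l4 at every stage. Nasp, a histone chaperone, stood in positions 244 and 378 at E16.5 and E18.5. Of 11 variants made outside the clusters, 1, 1 and 2 had CREB and 10 had H3K4. H2az2 had CREB at every stage and H2az1 at E18.5, whereas H3f3a and H3f3b, the genes for the replacement histone H3.3, had H3K4 alone. These counts can be read against 3.94%, 14.9%, 12.9% and 52.7% over all genes.

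The tissue label was checked by H3K4 at marker genes. The Sertoli cell genes Sox9, Amh and Dhh all had an H3K4 peak at an end, as did 1 of 4 Leydig cell genes (Cyp11a1) and 1 of 3 germ cell genes (Dazl). Over all genes this share was 52.7%, so 5 of 10 gonadal genes is close to the background. The blood genes Ptprc and Hbb-bt, the muscle genes Myod1 and Myog and the liver gene Alb had none. In whole gonads the share of dividing cells and the binding per cell cannot be told apart.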

How the data were processed

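CUT&RUN libraries were made from dissociated male gonads passed through a 70 µm filter, per the labels' protocols. Trim Galore 0.6.10, MACS2, Bowtie2 2.5.2 and the build mm10 are listed in the submitters' processing notes. No source used here gives the settings of peak calling, the treatment of multiply aligned reads or any use of the IgG library as control. The deposited files hold chromosome, start and end of each peak and no score or count: for CREB 862 peaks in the E13.5 list, 3528 in the E16.5 list and 2957 in the E18.5 list, and for H3K4 21211. Peaks were neither ranked by strength nor filtered, and read depth is unknown.

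Gene ends were taken from RefSeq for GRCm38.p6, the build also called mm10, and starts from a RefSeq promoter table that holds 58 of the 63 members. Peaks were counted at a gene when they reached within 1000 bp of an end. Positions are 1-based. With 1 library per group there is no test and no p-value. Members and lists were chosen with earlier results of these data known. Named are members with CREB at every stage, those nearest to a CREB peak, pairs, members with a CRE, members without peaks in chromosome order and listed genes with CREB. H2bc6 and the members with sequence copies were named after their values were seen. Figures and counts used matplotlib 3.10.9, scipy 1.17.1, pandas 2.3.3 and numpy 2.4.6 under Python 3.11.15, and the counting was tested on simulated data.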

Additional observations from a re-analysis of the deposited data

How the results depend on the processing

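Of 62 alternative values for 16 counts, 59 stayed within 1.5 times the reported count. The alternatives were windows of 500 and 2500 bp, peak midpoints inside the window, annotated starts only, every peak set to 150 bp, the same with a reciprocal overlap of 50%, and midpoints within 200 bp. For H3K4 beside CREB they were midpoints within 500 bp and direct overlap, and for pairs starts within 500 bp and midpoints between the starts. The number of first peaks was also limited. This last alternative, which takes as many first peaks as the E13.5 list holds, 862, gave the 3 exceptions. Distinct peaks at members then numbered 8 in place of 13 at E16.5 and 6 in place of 18 at E18.5, and members with a peak at E18.5 numbered 9 in place of 23. That setting keeps fewer peaks by construction. No score is held in the files, so a stricter peak threshold was not run. No paired analysis was possible because each group holds 1 library.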

Other observations

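Histone genes outside the naming rule gave a further comparison, chosen after their values were seen. Of H4f16 on chromosome 6, H2bu2, H2aw and H3f4 on chromosome 11 and H1f6 in block C, only H2aw had CREB, at E16.5 and E18.5 in list positions 913 and 1303, and H4f16, H2bu2 and H2aw had H3K4.

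In the E18.5 CREB list, 3 pairs of histone peaks stood in successive positions. Named by the nearest member, these were H2bc13 and H2bc12 in 1441 and 1442, H2ac8 and H2ac6 in 1900 and 1901, and H2bc4 and H1f2 in 2102 and 2103. The E13.5, E16.5 and H3K4 lists held 0 such pairs among the histone peaks.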
